A study of Arabidopsis thaliana with 13 samples.

Results

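The transcripts described here were higher in rRBr than in Col-0 root tips at 10 days after sowing (das) and not at 4 das. They are 137 of 22746 Arabidopsis probe sets, the sets of short probes with which an array measures 1 transcript. Each was chosen by 3 conditions. All 3 rRBr values at 10 das lay above all 3 Col-0 values, the mean difference between the lines at 10 das was at least 0.6 on the log2 scale, and the same difference at 4 das was below 0.2. Of 148 probe sets that met these conditions, 7 were left out since they were higher in rRBr on all arrays of all days, and 4 since the selection excludes them by name (At5g65300, At4g18450, At2g34930 and a probe set that HTR6 shares with another gene). Of the 137 members, 69 have 1 gene each and 68 have none in the annotation used, so that the latter are given by count or probe set number only. Only 12 members carry a gene symbol, and the other 57 are known by their locus number.

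Col-0 is the wild type. The rRBr line is Col-0 with an RNAi construct against RBR that the RCH1 promoter drives in the root meristem, so that silencing is local and the remaining tissue of the tip keeps RBR. Seeds of both lines were sown together, and growing and collecting were repeated 3 times. Total RNA of dissected root tips was hybridised to 13 Affymetrix ATH1 arrays, which hold 2 Col-0 and 2 rRBr arrays at 4 das, 1 Col-0 and 2 rRBr arrays at 6 das, and 3 of each line at 10 das. The age counts from sowing in the paper and from the end of stratification in the sample labels. RBR has no probe set of its own in the annotation used, and its level is not analysed here. Since whole tips were taken, a transcript that is lower because fewer cells of a type were present and one that is lower because each cell held less RNA cannot be told apart.

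RBR, the plant retinoblastoma protein, binds E2F transcription factors and keeps genes for DNA replication and cell division silent until a cell enters the cycle. In the root tip it restrains divisions of stem cells, and loss of it is known for extra divisions around the quiescent centre. The members with a symbol belong elsewhere. They are known as lectins (JAL33, JAL22), as wall and growth genes (EXO, EXLA1, GH9B6, ARL), as calcium and zinc finger regulators (CML23, STZ) and as genes named for their response to salt, cold or heat (SIS, SRC2, TIL, ATHSP22.0). CML23 and STZ are known to be induced quickly by touch, wounding or cold.

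A pair of expansin genes of the root hair, EXPA7 and EXPA18, set 3 arrays apart. On replicate 1 of Col-0 at 10 das, of rRBr at 6 das and of rRBr at 10 das, EXPA7 read between 8.68 and 8.83 (log2 value) and EXPA18 between 8.88 and 9.03, while EXPA7 did not exceed 7.65 on the other 10 arrays. Of the stem cell niche list 3 genes were measured (BBM, AGL42, JKD). At 10 das their mean level was between 6.35 and 6.63 in Col-0 and between 6.24 and 6.28 in rRBr, lower in rRBr without overlap. Singly, AGL42 differed by -0.55, JKD by -0.13 and BBM by 0.00 on that day, so that AGL42 carried most of the lower mean. AGL42 read between 3.80 and 4.42 at 4 das in both lines, and between 6.63 and 7.16 in Col-0 and 6.20 and 6.76 in rRBr at 10 das. Their part in the differences of the members was not tested. Of the photosynthesis list 3 genes were measured (LHCB4.1 to LHCB4.3), with a mean level between 5.00 and 5.51 on all arrays. The lists for root cap, xylem, phloem and endodermis have no gene found by symbol with a probe set to itself. The median difference is therefore also given without both arrays numbered 1 at 10 das and without replicate 1 of rRBr at 6 das, where the single Col-0 array has no replacement.

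As the selection required, the members differed at 10 das, by a median of 0.84 and at most 2.12 (log2), and in 41 of them the rRBr mean was at least 2 times the Col-0 mean. The gap between the lowest rRBr and the highest Col-0 value at 10 das ran from 0.01 to 1.66 with a median of 0.38. A full separation of the lines at 10 das was found in 5.28% of all probe sets. On that day 11 members were called higher in limma with limits of 0.01 for the adjusted p and 1.4 for the fold change, which 0.251% of all probe sets passed upwards and 0.0352% downwards. Blocking on the replicate number gave 16, against 0.356% of all probe sets. These counts use the contrast that chose the members and describe them only.

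**Figure D1:**
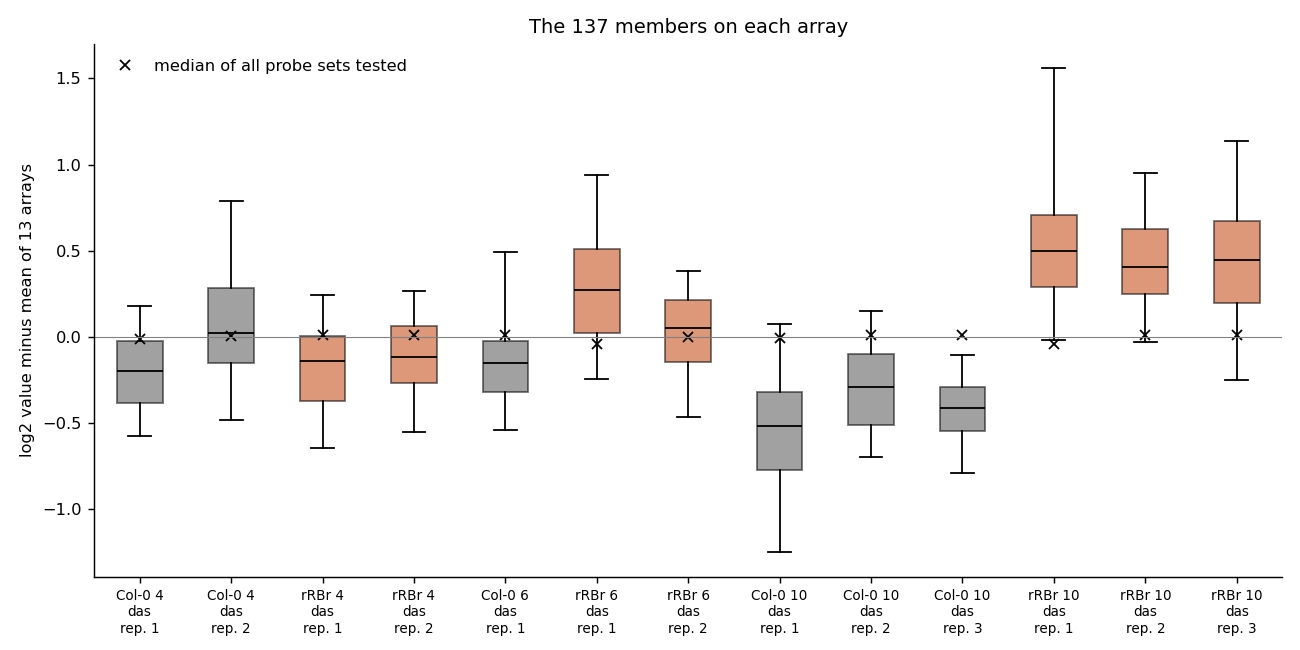
Log2 value of the 137 members minus each member's mean over the 13 arrays, for each array of Col-0 (grey) and rRBr (orange). Boxes span the quartiles with the median as a line, whiskers the 5th to 95th percentile, and crosses mark the median of all probe sets tested. Member medians lay between -0.52 and -0.29 in Col-0 and between 0.40 and 0.50 in rRBr at 10 das, where the choice of members fixed the order, and at 0.27 and 0.05 in rRBr against -0.15 in Col-0 at 6 das.

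Replicate 1 of Col-0 at 10 das, with high root hair transcripts, had the lowest median of the members of all arrays (-0.52), and replicate 1 of rRBr at 10 das, with equally high root hair transcripts, had the highest (0.50). The choice of members put each rRBr array of 10 das above each Col-0 array of 10 das, and the part of root hair content in the differences was not tested. Within the pairs of arrays that share a replicate number, the median difference at 10 das was 1.04, 0.73 and 0.85 for numbers 1 to 3. Without number 1 it was 0.79, and 108 of the 137 members kept a mean difference of at least 0.6.

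The largest difference at 10 das belonged to a probe set without a gene, 248545_at. It read 3.95, 3.78 and 3.67 in Col-0 and 5.92, 5.61 and 6.23 in rRBr at 10 das, and between 3.77 and 4.39 on all arrays of 4 and 6 das. Outside rRBr at 10 das it stayed near or below the lower quartile of each array, 4.15 to 4.24. The next, 246884_at, also without a gene, read 4.50, 4.68 and 4.62 in Col-0 and 6.71, 6.33 and 6.52 in rRBr at 10 das, and was already 0.67 higher in rRBr at 6 das. Among the 10 largest differences, 265675_at (1.49) and 253794_at (1.47) have no gene either.

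Of the members with a locus number, At1g23160 and At1g21340 differed at 10 das by 0.90 and 0.80 between the nearest arrays of the lines. At1g23160 read 7.73, 8.75 and 8.07 in Col-0 and 9.81, 9.70 and 9.65 in rRBr at 10 das. The Col-0 values had been 9.16 and 9.55 at 4 das, so that rRBr at 10 das was near the level of young wild-type roots. At1g21340 read 5.26, 6.11 and 5.91 in Col-0 and 6.91, 7.43 and 7.26 in rRBr at 10 das, after 5.59 and 6.12 in Col-0 and 5.91 and 5.68 in rRBr at 4 das. Here it was the rRBr arrays that had left the level of 4 das. At4g26880 (difference 1.38), At1g65570 (1.35), At1g74010 (1.26), At2g15830 (1.23), At3g59480 (1.23), At3g61930 (1.12), At2g28870 (1.05), At1g10530 (1.03), At5g15940 (1.03), At1g71140 (1.01), At3g55890 (1.01), At2g36950 (0.99), At5g53500 (0.97) and At4g35750 (0.96) followed. At3g28530 (1.49) was read by probes that may also bind other transcripts, as the suffix of its probe set, x_at, marks.

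Several smaller differences were as even. At1g71140 read 4.65, 4.87 and 4.82 in Col-0 and 5.84, 5.87 and 5.67 in rRBr at 10 das, with 4.60 in Col-0 and 5.22 and 4.93 in rRBr at 6 das. At3g55890 read 3.84, 3.70 and 3.79 in Col-0 and 4.96, 4.69 and 4.70 in rRBr at 10 das. In both, the gap between the lines at 10 das (0.80 and 0.85) was wider than the range within either line. On all Col-0 arrays, those of 4 and 6 das included, At3g55890 lay below the lower quartile of the array (4.15 to 4.24). The 68 members without a gene resembled the 69 with 1 gene in size, with median differences of 0.82 and 0.84 at 10 das and of 0.30 and 0.35 at 6 das.

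Jacalin-related lectins are proteins that bind sugars, several of which are abundant in roots. JAL33 read 9.59, 10.19 and 9.61 in Col-0 and 11.12, 10.97 and 10.99 in rRBr at 10 das, a difference of 1.23 with SDs of 0.34 and 0.08 (n = 3 each). In rRBr it lay between 10.71 and 11.12 on all 7 arrays, and in Col-0 it went from 10.49 and 11.12 at 4 das through 10.37 at 6 das to the 10 das values. The second lectin, JAL22, behaved otherwise. It read 4.35, 4.27 and 4.36 in Col-0 and 6.30, 4.51 and 4.53 in rRBr at 10 das, and 5.75 and 4.31 in rRBr against 4.36 in Col-0 at 6 das. At 4 das JAL22 read 5.19 and 5.17 in Col-0 and 4.84 and 4.62 in rRBr. Only the values of 6.30 and 5.75 were higher than those of Col-0 at 4 das. Both belong to rRBr arrays with high root hair transcripts, while the Col-0 array with equally high ones read 4.35. The part of root hair content in these values was not tested. Without replicate 1 the difference at 10 das was 0.20. The family was added after the values were seen. Its other genes found by symbol, JAL23 and JAL34, are no members, and their median difference at 10 das was -0.12.

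Among the wall and growth genes, EXO, an extracellular protein that promotes cell expansion, read 8.22, 8.40 and 8.34 in Col-0 and 9.39, 9.58 and 8.99 in rRBr at 10 das, and between 8.36 and 8.91 on the 7 arrays of 4 and 6 das. The difference of 1.00 thus appeared after 6 das, with Col-0 nearly level. EXLA1, an expansin-like protein of the cell wall, read 7.59, 7.45 and 7.20 in Col-0 and 8.48, 8.01 and 8.24 in rRBr at 10 das. At 4 das it had been lower in rRBr, by 0.45. GH9B6, of the glycosyl hydrolase family that includes endoglucanases, read 5.59, 7.34 and 6.58 in Col-0 and 7.44, 7.39 and 7.91 in rRBr at 10 das, so that replicate 2 of Col-0 nearly reached the rRBr range. ARL, an ARGOS-like gene of organ growth, read 6.02, 6.41 and 6.36 in Col-0 and 7.26, 6.53 and 7.52 in rRBr at 10 das. Replicate 2 of rRBr was only 0.12 above the highest Col-0 array.

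The families of these genes were also added after the values were seen. In the annotation used, no other gene of the families of EXO and ARL was found by symbol with a probe set to itself. Beside EXLA1, 4 further expansin-like genes were measured, and the median of all 5 was 0.01. Beside GH9B6, 14 further genes of its family were measured, and the median of those 14 was -0.03. The list of wall proteins and enzymes, with 23 probe sets and no member, had a median of 0.06, against -0.02 over all probe sets.

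CML23 encodes a calmodulin-like calcium sensor, and STZ (also ZAT10) a zinc finger repressor that salt, cold and wounding induce. CML23 read 7.98 and 8.47 in Col-0 and 7.44 and 7.90 in rRBr at 4 das. At 10 das it read 6.57, 7.01 and 6.65 in Col-0 and 7.53, 7.74 and 7.80 in rRBr. The rRBr level was thus the same on average at both ages, a change of 0.02, while Col-0 went from above to below it, by -1.48. STZ read 5.72 and 6.68 in Col-0 and 5.09 and 5.77 in rRBr at 4 das, 6.99 in Col-0 and 5.80 and 5.44 in rRBr at 6 das, and 4.73, 4.89 and 5.09 in Col-0 and 5.94, 5.59 and 5.16 in rRBr at 10 das. On average it was lower in rRBr at 4 and 6 das and higher at 10 das, with a gap of 0.07 between the lines on the last day.

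The salt, cold and heat genes differed among themselves in how evenly the arrays showed them. SRC2, a cold-regulated membrane protein, read 8.90, 8.59 and 8.79 in Col-0 and 9.45, 9.42 and 9.52 in rRBr at 10 das, and between 8.98 and 9.25 on the 7 arrays before, with SDs at 10 das of 0.16 in Col-0 and 0.05 in rRBr (n = 3 each). TIL, a lipocalin that protects membranes in heat, read 7.25, 7.42 and 7.32 in Col-0 and 8.60, 8.65 and 7.57 in rRBr at 10 das, and 7.07 in Col-0 and 8.07 and 7.61 in rRBr at 6 das. SIS, a salt-induced serine-rich protein, read 7.26, 7.76 and 7.37 in Col-0 and 8.69, 8.73 and 8.14 in rRBr at 10 das, while its highest value, 10.02, belonged to replicate 1 of rRBr at 6 das. ATHSP22.0, a small heat shock protein, read 4.37, 4.40 and 4.20 in Col-0 and 6.54, 4.60 and 4.44 in rRBr at 10 das. A single array carried its difference of 0.87, which was 0.22 without replicate 1.

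**Figure D2:**
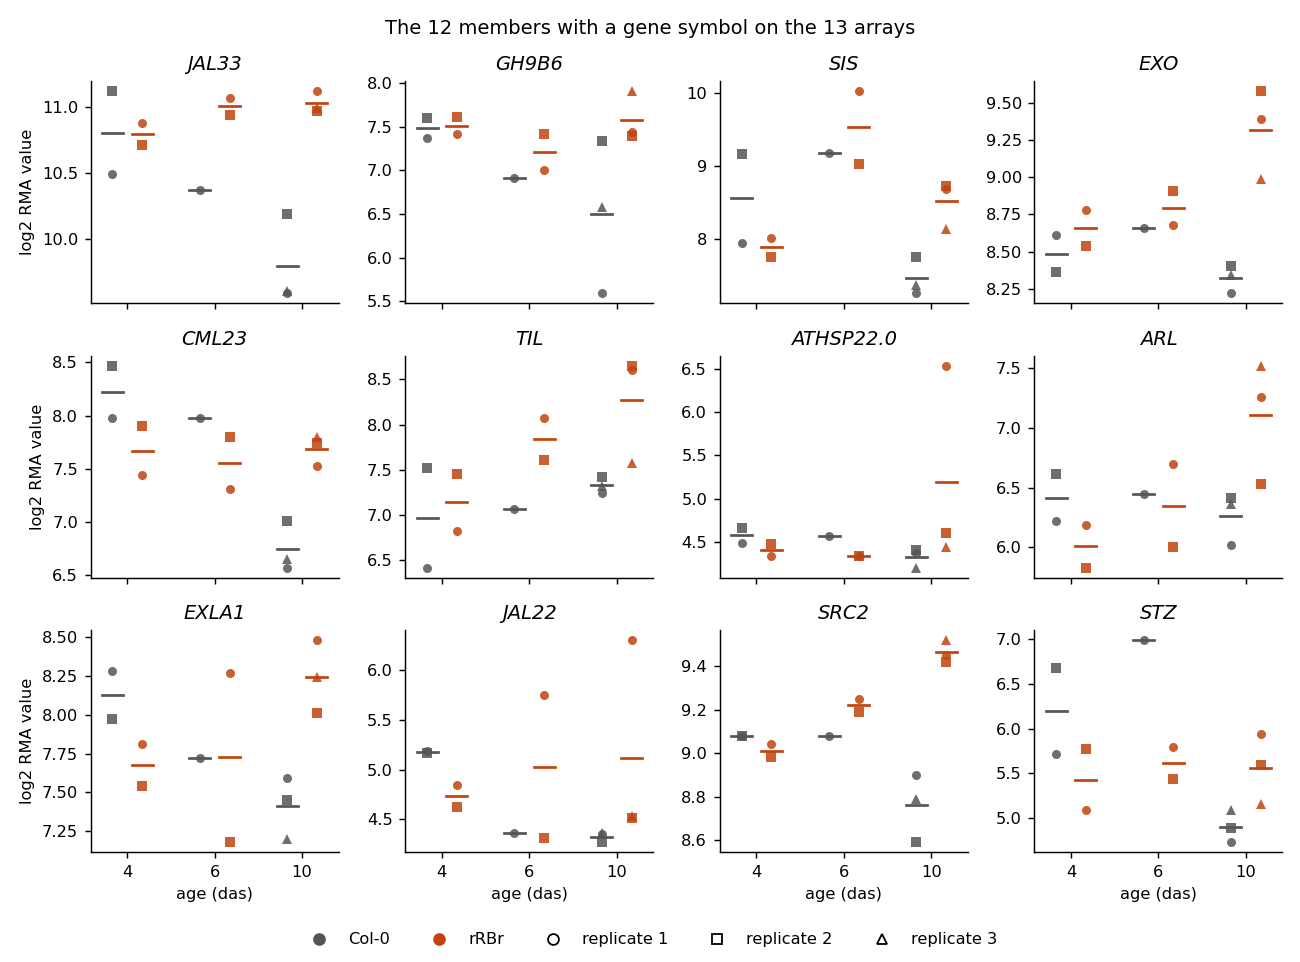
Log2 values of the 12 members with a gene symbol on all 13 arrays at 4, 6 and 10 das, Col-0 in grey and rRBr in orange, with the replicate number as the shape and a bar at the group mean. SRC2, JAL33, EXO and CML23 separated the lines at 10 das on all arrays by at least 0.52. In ATHSP22.0 and JAL22 only replicate 1 of rRBr stood clear of Col-0 on that day.

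ATHSP22.0 and JAL22 belong to 8 members in which replicate 1 of rRBr at 10 das lay at least 1 (log2) above both other rRBr arrays, a limit chosen after the values were seen. No member had replicate 2 or replicate 3 apart in this way. The most extreme was At5g37670, which read 8.64, 3.95 and 3.68 in rRBr and 3.47, 3.65 and 3.67 in Col-0. Its difference of 1.83, the third largest of all members, was 0.15 without replicate 1. At1g26800 read 6.69, 4.51 and 4.40 in rRBr and 4.37, 4.39 and 4.32 in Col-0, and its difference of 0.84 was 0.10 without replicate 1. The others were At3g14200 (0.43 without replicate 1), 265675_at (0.52), 256576_at (0.62) and At5g25450 (1.11).

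At5g25450 alone of these 8 kept a difference above 1. It read 5.84, 5.88 and 5.65 in Col-0 and 8.56, 7.05 and 6.71 in rRBr at 10 das, and all 3 rRBr arrays were above every array of 4 and 6 das. In 4 of the 8, replicate 2 of Col-0 at 4 das was also at least 1 above replicate 1, as it was in 8 of all 137 members. At5g37670 read 5.09 there against 3.70, and At3g14200 8.75 against 6.82. Single arrays of both lines thus held high values of these transcripts. Since 29 members, 18 of them with 1 gene, fell below the limit of 0.6 without replicate number 1, these 29 are members through that pair of arrays.

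**Figure D3:**
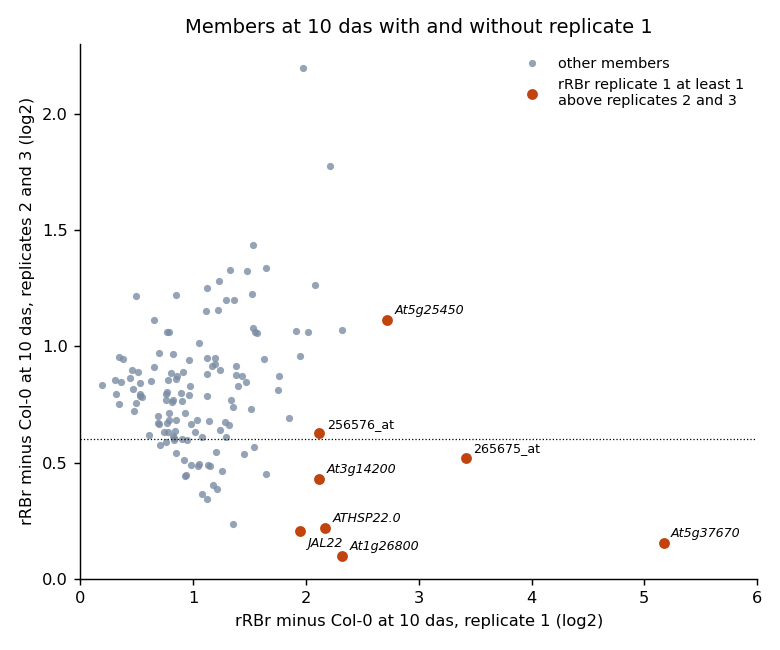
Difference between rRBr and Col-0 at 10 das on the log2 scale for the arrays with replicate number 1 (horizontal) and the mean of numbers 2 and 3 (vertical), 1 point per member. The 8 members in orange had replicate 1 of rRBr at least 1 above the other rRBr arrays, and 6 of them lay below the dotted line at 0.6.

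The difference at 10 das was reached from both sides. Between 4 and 10 das the level went up in rRBr in 128 members, with a median change of 0.60, and down in Col-0 in 115, with a median of -0.32. The medians over all probe sets were -0.02 and 0.01. Since the selection fixed the lines apart at 10 das and not at 4 das, some such change is given, and only its share between the lines describes the members. In 91 members the change was larger in rRBr and in 46 it was larger in Col-0.

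In 45 members rRBr went up by at least 0.6 while Col-0 stayed within 0.3 of its level at 4 das, among them At5g25450, At1g21340, At4g26880, At2g15830, EXO, ARL and ATHSP22.0. In 21 members Col-0 went down by at least 0.6 while rRBr stayed within 0.3, among them JAL33, GH9B6, CML23, STZ, At3g59480 and At4g35750. These limits were chosen after the values were seen. The 45 and 21 are 32.8% and 15.3% of the members. Of all probe sets, 0.985% changed in the first way and 0.646% in the second. At3g59480, for example, read 6.81 and 7.59 in Col-0 at 4 das and 5.55, 5.82 and 5.98 at 10 das, and 7.12, 6.94 and 6.97 in rRBr at 10 das. In 7 members both happened, among them SIS, and TIL went up in both lines, by 0.36 in Col-0 and 1.13 in rRBr. Of the 12 members with a symbol, 11 went down in Col-0 and all 12 went up in rRBr, by between 0.02 and 1.13. Since the arrays of both ages chose the members, these changes have no test.

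**Figure D4:**
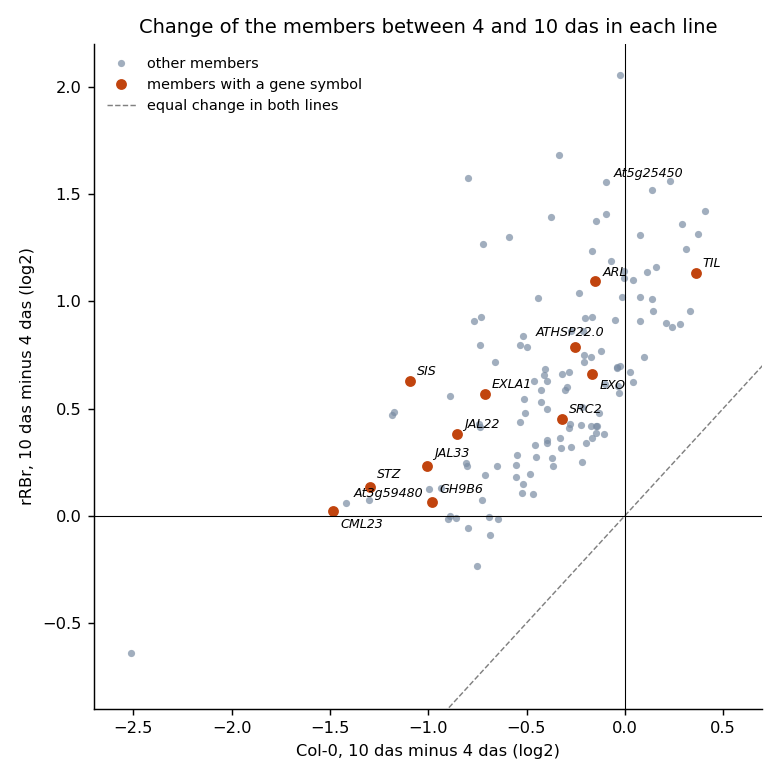
Change between 4 and 10 das of the 137 members in Col-0 (horizontal) and in rRBr (vertical), as differences of group means on the log2 scale. Points above the dashed line changed more upwards in rRBr, as the choice of members required, and CML23, STZ, JAL33 and GH9B6 lie near 0 in rRBr but far left in Col-0.

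The arrays of 6 das did not take part in the choice of the members, save that probe sets higher in rRBr on all arrays were left out. At 6 das most members, though not all, already lay above Col-0, in differences that did not pass the test singly. On that day the mean of the 2 rRBr arrays was above the Col-0 array in 119 of 137 members, against 44.1% of all probe sets, and the median difference was 0.33, against -0.02 over all probe sets. Both rRBr arrays were above Col-0 in 92 members (67.2%), against 27.1% of all probe sets. Both were below it in 13 members (9.49%), against 36.4%. A difference of at least 0.6, the size required at 10 das, was found in 26 members (19%), against 3.73% of all probe sets.

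The rRBr arrays of 6 das were not alike. Replicate 1, with high root hair transcripts, gave a median difference of 0.43 and was above Col-0 in 115 members, and replicate 2 gave 0.25 and was above it in 100. All of these values rest on 1 Col-0 array. Set against the mean of the 2 Col-0 arrays of 4 das in its place, the rRBr arrays of 6 das gave a median difference of 0.26.

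In single transcripts the difference at 6 das did not pass the test. None of the 137 members was called at 6 das at an adjusted p under 0.05 (limma, with the Benjamini-Hochberg method across all probe sets), and their adjusted p-values were at least 0.834. Of all 22746 probe sets, 2 were called (0.00879%). At an unadjusted p under 0.05, 19 members were higher (13.9%), against 1.98% of all probe sets, and 1 was lower, STZ, against 2.37%. The spread in this fit comes in part from the 10 das arrays, on which the members were selected not to overlap. Without replicate 1 of rRBr the count was 8 (5.84%, against 1.64%), without replicate 2 it was 33 (24.1%, against 4.39%), and with the replicate number as a block 30 (21.9%, against 7.57%).

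The largest differences at 6 das among members with 1 gene were those of At2g15830, At5g53500, At1g21000, TIL and At3g28530. At2g15830 read 4.63 in Col-0 and 6.45 and 5.31 in rRBr at 6 das, a difference of 1.25 ± 0.40 (SE of the fit, adjusted p = 0.926 with limma), as large as its 1.23 at 10 das. At5g53500 read 5.90 in Col-0 and 7.05 and 6.57 in rRBr at 6 das, and 6.73, 5.81 and 6.20 in Col-0 and 7.22, 7.13 and 7.31 in rRBr at 10 das. At1g21000 differed by 0.79 at 6 das and 0.88 at 10 das. The smallest p at 6 das among members with 1 gene belonged to At3g55890, with 3.99 in Col-0 and 4.54 and 4.48 in rRBr, a difference of 0.52 ± 0.14 (adjusted p = 0.84 with limma).

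**Figure D5:**
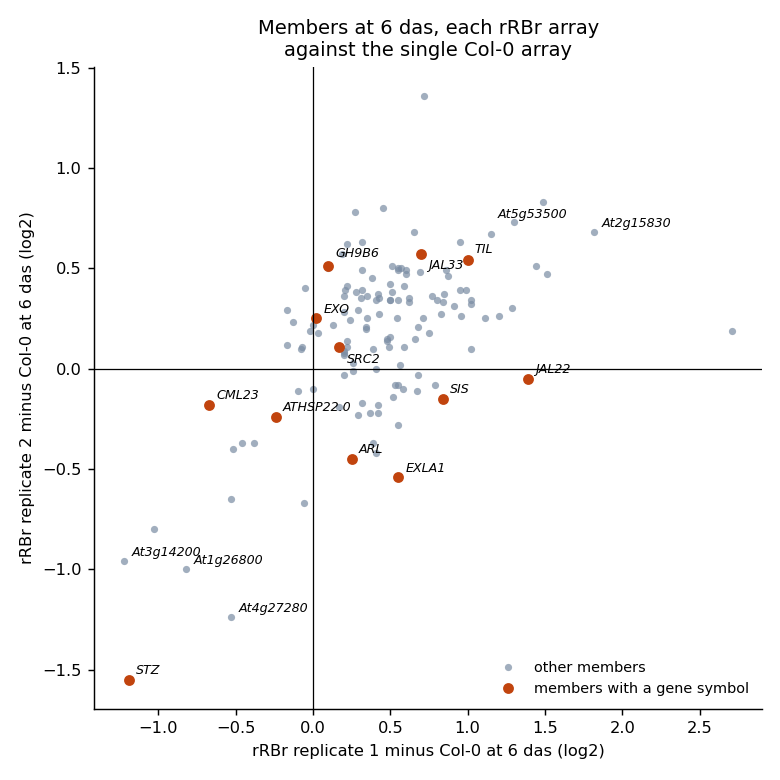
Difference at 6 das of each rRBr array from the single Col-0 array on the log2 scale, replicate 1 horizontal and replicate 2 vertical, 1 point per member. In 92 members both differences were above 0, and in 13, among them STZ, CML23 and ATHSP22.0, both were below 0.

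A smaller set ran against the rest. In 12 members, 9 of them with 1 gene, the difference at 4 das was -0.5 or less, a limit chosen after the values were seen. Without replicate 2 of Col-0 at 4 das only 2 of the 12, At3g56360 (-0.76) and At4g27280 (-0.68), stayed within it, and At5g37670 stood at 0.15, At1g26800 at 0.06, At3g14200 at -0.03 and SIS at -0.06. At 6 das both rRBr arrays were below Col-0 in 7 of the 12, and in 6 of the other 125 members. STZ had the lowest value at 6 das, -1.37 ± 0.43, followed by At3g14200 (-1.09), 265740_at (-0.91), At1g26800 (-0.91) and At4g27280 (-0.89), and At5g37670 and CML23 stood at -0.46 and -0.43. None of these passed the adjusted test at 6 das. At4g27280 read 8.79 and 8.98 in Col-0 and 8.09 and 8.14 in rRBr at 4 das, and 8.00, 7.58 and 7.53 in Col-0 and 9.32, 8.35 and 8.08 in rRBr at 10 das. On average the lines had thus changed places between the ages. They did not overlap at 4 das, with 2 arrays each, and the selection required the same at 10 das. Without replicate number 1 the difference of At4g27280 at 10 das was 0.66, against 0.88.

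At1g32920 was lower in rRBr at 4 das by 0.34 only, and read 9.32 in Col-0 and 8.79 and 8.67 in rRBr at 6 das. At3g56360, SIS and At3g28530 were also among the 12 but were above Col-0 at 6 das, by 0.61, 0.34 and 0.69. The touch and wound list holds STZ and CML23 and 4 genes that are no members, CML37, CML38, WRKY53 and At1g76640. All 6 had a median difference of -0.36 at 4 das, of -0.40 at 6 das, then of 0.14 at 10 das. The values of 4 and 10 das chose STZ and CML23, so that part of this change was given by the selection. At 4 das CML37, WRKY53 and At1g76640 stood at -0.115, -0.415 and -0.30, and CML38 at 0.35. At 6 das CML37, CML38 and At1g76640 stood at -0.32, -0.38 and -0.905, and WRKY53 at 0.03. These 4 had a median of 0.02 at 10 das.

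The lists for ERF and DREB factors, MYB factors and tryptophan-derived defence have no gene found by symbol with a probe set to itself. Nor have the lists for gibberellin and brassinosteroid and for DNA damage response, so these pathways were not examined. Other genes of known pathways were measured in 26 of 31 lists, with 182 probe sets, of which STZ, CML23 and ATHSP22.0 were members. Among the 179 others, none passed the same limits in limma at 10 das, in either direction, and none was called at 6 das. At an unadjusted p under 0.05, 17 of the 179 were higher at 10 das, against 4.76% of all probe sets, and 9 were lower, against 3.05%. Of the 17, 10 belonged to the 11 measured genes for histones and DNA replication, many of which E2F factors are known to control. They are not members, and 10 of the 11 already differed by at least 0.2 at 4 das. The exception, HIS1-3, differed by 0.02 at 4 das, 0.50 at 6 das and 0.58 at 10 das, under the limit of 0.6. With the replicate number as a block, HTB2, an H2B histone (0.97, adjusted p = 0.0072), was called higher at 10 das.

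For the larger stress and hormone lists the median difference at 10 das was 0.11 for 7 WRKY factors, -0.07 for 14 glutathione transferases, -0.01 for 51 glycosyltransferases, -0.09 for 6 peroxidases, -0.15 for 9 genes of abscisic acid and drought, 0.09 for 12 of auxin response, -0.05 for 6 of cytokinin response and 0.02 for 8 calmodulin-like genes including CML23. The lists for NAC factors, jasmonate, ethylene, salicylate, receptor-like kinases, MAP kinases, phenylpropanoids, hypoxia, iron, phosphate, nitrate and ubiquitin ligases, with 1 to 12 probe sets each and no member, had medians between -0.14 and 0.41. Of the heat shock list, only ATHSP22.0 and Hsp70-2 were found by symbol, the second with a difference of 0.46 at 10 das and -0.03 at 6 das. Of the developmental cell death list only SCPL48 was measured. It read between 8.17 and 8.54 in Col-0 and between 9.53 and 9.67 in rRBr at 10 das, a difference of 1.22, but is no member, since it already differed by 0.26 at 4 das.

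The members were spread over the genome. Of 68 members with a protein-coding gene placed on a chromosome, 29.4%, 13.2%, 23.5%, 11.8% and 22.1% lay on chromosomes 1 to 5, against 26.3%, 15.4%, 20.5%, 14.4% and 23.4% of all 12374 such probe sets. Closest in gene order were At1g13970 and At1g13990, with 1 gene between them and differences at 10 das of 0.68 and 0.64. At1g23160 and GH9B6 had 6 genes between them and both went down in Col-0 with age. At5g57340 and At5g57400 also had 6 genes between them (0.70 and 0.71).

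Near the limits of the selection, values were close. The members with the smallest difference at 10 das, At3g11600 and 265740_at, stood at 0.60, and the nearest below, At3g19200 and 265145_at, also at 0.60 when rounded (0.597). At the limit for 4 das, 261191_at (0.19) and 263689_at (0.18) were inside, and At5g17650 and 259502_at (0.20 each) outside. At5g17650 differed by 1.37 at 10 das and 1.22 at 6 das and is left out by that limit alone. The smallest gap between the lines at 10 das, 0.01, was shared by At5g37670, At1g26800, At1g50630 and 263689_at.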

How the data were processed

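Total RNA of root tips was hybridised to 13 Affymetrix ATH1 arrays (6 Col-0, 7 rRBr). The deposited values are log2 values that the authors made with RMA from the affy package (versions not given in the sources used here), which equalizes the distribution of the arrays, so that only differences relative to the bulk of transcripts are measured. They were used as deposited. No counts are given, and the number of arrays limits the precision.

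Without 64 controls, 22746 probe sets entered the tests. A platform table gave 1 gene for 13513 probe sets, several for 503 and none for 8730 (38.4%, against 49.6% of the members). Gene symbols came from RefSeq (TAIR10.1), which 13436 of the 13513 matched. A gene of a list or family counted as measured only where it was found by symbol as the 1 gene of a probe set. Further genes of a list or family may thus be among the probe sets without a gene. They may also be among the genes known only by a locus number, members included. Sequences and promoters were not used here, and coordinates served only to place genes on the chromosomes and in order.

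The members and the gene lists were chosen with earlier results of these data known. The difference at 10 and 4 das chose the members, so that their calls at 10 das are a description and the tests that bear on them concern 6 das. limma 3.58.1 in R 4.3.3 (lmFit, eBayes) was fitted to 6 groups of line and day with p-values adjusted by the Benjamini-Hochberg method across all probe sets, and was checked on simulated data. Col-0 at 6 das has 1 array, taken to vary as the rest do, and a p measures the spread between arrays. The limit at 6 das was an adjusted p of 0.05, and for lists at 10 das the limits of the study's methods.

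Genes named were the 25 members with the largest difference at 10 das, members in a list, with a family name or with a neighbour among the members, the 5 largest and smallest at 6 das, and those nearest to each limit, all with 1 gene. Probe sets without a gene are named among the 10 largest at 10 das and at the limits. At3g56360 and 256576_at are named outside this rule.

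After subtraction of group means, arrays of equal replicate number correlated across probe sets by 0.79, 0.60 and 0.63 at 10 das. At 4 das the value was 0.18 (2 arrays per line, 1 value). At 10 das, rRBr replicate 2 with Col-0 replicate 3 gave 0.56, and rRBr replicate 3 with Col-0 replicate 2 gave 0.41. Number 1 with any other number gave between -0.72 and -0.60. Number 1 thus stood apart, while the pairing of numbers 2 and 3 was less clear. The numbers were taken to pair the arrays. Alternatives were another normalization, centring, a filter on low values, a replicate block, array weights, other limits and leaving out each array.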

Additional observations from a re-analysis of the deposited data

Results flagged for a closer look

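In 8 named members with 1 gene, both rRBr arrays were below the Col-0 array at 6 das although all 3 rRBr arrays were above all 3 Col-0 arrays at 10 das. The differences at 6 das were -1.37 for STZ, -1.09 for At3g14200, -0.91 for At1g26800, -0.89 for At4g27280, -0.59 for At1g32920, -0.46 for At5g37670, -0.43 for CML23 and -0.24 for ATHSP22.0. The change between the days was not tested, since the values of 10 das chose these transcripts, and the values at 6 das rest on 1 Col-0 array. Groups held at most 3 arrays, and the formal test for a single outlying array, which needs 4 or more, was not run.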

How the results depend on the processing

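The number of members moved most with the arrays. It was between 108 and 326 without 1 array of 4 or 10 das at a time, against 137, with 326 without Col-0 10 das replicate 1 (114 of the 137 among them) and 229 without rRBr 10 das replicate 3 (124 among them), where fewer arrays had to be apart. Members at -0.5 or less at 4 das numbered between 4 and 25 without 1 array of 4 das at a time, against 12, with 4 (2 of the 12 among them) without Col-0 4 das replicate 2 and 25 without Col-0 4 das replicate 1. A difference of at least 0.8 at 10 das left 75. The other alternatives gave between 105 and 198 members, the replicate block by pairs at 10 das 198. The median difference at 6 das lay between 0.25 and 0.43 under all its alternatives (0.28 with the replicate block). Both rRBr arrays were above Col-0 at 6 das in 94 members with another normalization and in 91 with centring, against 92. With the filter on low values they were above it in 82 of 120 members. A single rRBr array, which is a looser condition, was above Col-0 in 115 (replicate 1) and 100 (replicate 2).

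No member was called at 6 das under any alternative. Members higher at 6 das at an unadjusted p under 0.05 numbered 30 with the replicate block and between 8 and 33 without 1 array at a time, against 19. Pathway probe sets called higher at 10 das numbered 2 with the replicate block (HTB2 and the member CML23, which that contrast chose), 4 with array weights (ATIM, HTB2, PRL, WRKY22), 2 at an adjusted p under 0.05 (ATIM, HTB2) and 1 without the 3 arrays with high root hair transcripts (HTB2), against 0, and 0 without any single array. The replicate block changed no call of a named member at 6 das and turned the sign of 3 of 42. The cause of these shifts was not tested. Leaving out both 10 das arrays numbered 1, all 3 arrays with high root hair transcripts, the unadjusted counts, the counts at -0.5 or less and the use of Col-0 at 4 das were chosen after seeing the data. Values of 1 Col-0 array at 6 das have no spread of their own.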
